A study of Homo sapiens with 12 samples.

Results

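Transcripts of 53 mitosis genes were followed in PC3 and DU145, established lines from human prostate tumours whose growth does not need androgen, after treatment with pentamidine, an aromatic diamidine used against protozoa. The genes were chosen by name as regulators and machinery of cell division, and all 53 were found among the 32077 genes of the deposited count table. Both lines are labelled as wild type, and cells were kept in 6-well plates for 48 hours in medium with 2.5 μM pentamidine or with vehicle. Each of the 4 groups, PC3 with vehicle, PC3 with pentamidine, DU145 with vehicle and DU145 with pentamidine, held 3 samples, 12 in all. The labels do not say whether the 3 samples of a group came from separate cultures, so p-values measure the spread between these samples, which may be technical. Each line stands for 1 tumour, and no other line was compared.

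A dividing cell enters mitosis when cyclin B binds and activates CDK1, and the Aurora and Polo-like kinases then help to build a bipolar spindle. Kinetochores, which form on centromeric chromatin marked by CENP-A, attach the chromosomes to microtubules, and the spindle checkpoint holds the anaphase-promoting complex until all are attached. Condensins compact the chromosomes, and anillin, ECT2 and PRC1 take part in dividing the cytoplasm. Most of these genes are transcribed from the late part of the cell cycle onwards, held down early by the DREAM repressor complex and driven later by B-MYB, MuvB and FOXM1. The share of dividing cells therefore moves their RNA in bulk samples, where fewer dividing cells and less RNA per cell cannot be told apart.

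Promoters of these genes are known for a short element, the cell cycle genes homology region (CHR), often downstream of CCAAT boxes bound by NF-Y. Promoter sequences from RefSeq (GRCh38.p14, 250 bases before to 50 after each start) were matched by symbol to 46 of the 53 genes. TTK, TPX2, AURKA, BIRC5, BUB3, UBE2C and FOXM1 were not matched. A CHR was counted where TTTGAA or TTCGAA stood on either strand, and it was found in 33 of the 46 promoters (71.7%), against 16.4% of 35116 promoters of all genes. In 75 promoters of other mitosis genes it was found in 49.3%. CCAAT on either strand was found in 73.9% of the 46, in 34.6% of all promoters, in 58.7% of those of other mitosis genes and in 56.8% of 44 promoters of DNA replication genes. Both elements stood in 56.5% of the 46 and in 6.38% of all promoters. Of 44 CHR matches in these genes 72.7% lay within 50 bases of the start, against 27.3% of all matches, and their median position relative to the start was -23 bases. The median CCAAT match lay further upstream, at -74.5 bases. E2F letters (TTTCGCGC or TTTGGCGC, either strand) were in 4.35% of the 46, in 1.15% of all promoters and in 22.7% of those of DNA replication genes. A CHR was rarer in those replication genes, at 6.82%. Repeated symbols were dropped for the mitosis and replication genes, but not for the promoters of all genes. TTCGAA reads the same on both strands, CHR and CCAAT letters can share a base at their ends, and a match is a description of the sequence only.

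Stretches of 200 bases, 5′ to 3′ and ending 30 bases past the start, are shown for 5 genes, with CHR and CCAAT letters of either strand in capitals. CCNB2 (chr15:59104976-59105175, plus strand) holds 3 CCAAT matches upstream of 1 CHR, PLK1 (chr16:23678719-23678918, plus strand) and KIF11 (chr10:92592960-92593159, plus strand) hold 1 of each, and ANLN (chr7:36389692-36389891, plus strand) and CENPA (chr2:26785886-26786085, plus strand) are the genes furthest below and furthest above their vehicle level in DU145 cells.
CCNB2: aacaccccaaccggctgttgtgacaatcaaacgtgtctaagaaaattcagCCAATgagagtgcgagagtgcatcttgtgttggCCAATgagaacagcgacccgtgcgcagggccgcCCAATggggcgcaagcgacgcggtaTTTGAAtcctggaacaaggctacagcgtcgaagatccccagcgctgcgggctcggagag
PLK1: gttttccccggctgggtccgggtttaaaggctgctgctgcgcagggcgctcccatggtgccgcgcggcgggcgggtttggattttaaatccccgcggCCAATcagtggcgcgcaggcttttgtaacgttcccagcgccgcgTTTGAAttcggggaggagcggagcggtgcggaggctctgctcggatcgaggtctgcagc
KIF11: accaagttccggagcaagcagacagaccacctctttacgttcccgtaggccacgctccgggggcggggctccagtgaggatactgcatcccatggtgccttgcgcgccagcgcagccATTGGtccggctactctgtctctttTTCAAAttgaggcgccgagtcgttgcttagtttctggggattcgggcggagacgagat
ANLN: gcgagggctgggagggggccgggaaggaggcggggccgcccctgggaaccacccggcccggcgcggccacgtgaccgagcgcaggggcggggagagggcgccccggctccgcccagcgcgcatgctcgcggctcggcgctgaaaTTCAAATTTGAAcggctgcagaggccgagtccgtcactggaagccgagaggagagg
CENPA: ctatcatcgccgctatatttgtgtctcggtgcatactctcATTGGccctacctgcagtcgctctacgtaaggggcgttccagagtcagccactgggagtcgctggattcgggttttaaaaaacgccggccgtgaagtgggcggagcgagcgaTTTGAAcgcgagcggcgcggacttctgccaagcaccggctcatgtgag
ANLN and CENPA both carry a CHR in this stretch, although their RNA moved apart in DU145 cells. Over all genes with a promoter, the median log2 fold change with pentamidine in PC3 cells was -0.58 for the 33 with CHR letters and -0.48 for the 13 without. In DU145 cells it was -0.10 with CHR letters and -0.13 without. Other forms of the CHR were not searched, so the 13 may hold some. These medians are descriptions and were not tested.

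**Figure D1:**
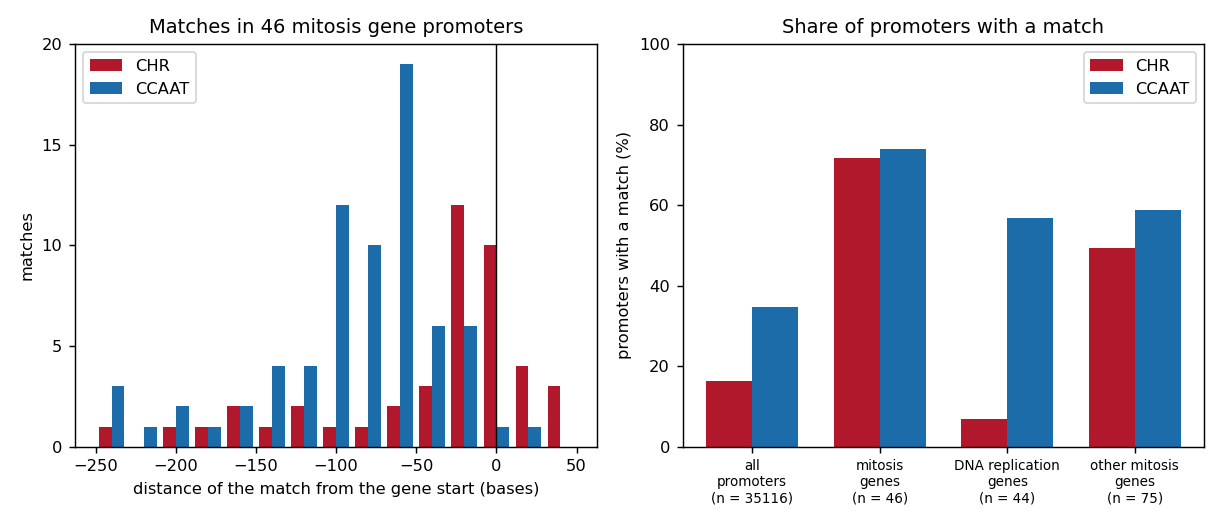
Left, the number of CHR (red) and CCAAT (blue) matches by distance from the gene start, in bases, in the promoters of 46 mitosis genes. Right, the percentage of promoters with a match, where the mitosis genes reach 71.7% for CHR and 73.9% for CCAAT against 16.4% and 34.6% of all promoters.

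RNA with a poly(A) tail was sequenced, and the total count ranged from 13514195 to 15131436 per sample. Counts of the mitosis genes ranged from 193 (SPC24, the lowest in any sample) to 18340 (MKI67), and all 53 passed the filter on low counts in every comparison. Replicates differed by more than sampling noise in every group, by a chi-square per gene that averaged 1.72 to 7.3, and vehicle-treated PC3 replicate 1 stood furthest from its group (5.98 and 7.3). Of 6 epithelial markers EPCAM was at 3 counts or fewer in every group and CDH1 in both PC3 groups. CLDN7 was so in all groups but pentamidine-treated PC3 cells. CDH1 reached at most 0.68 CPM in DU145 cells, and CLDN4 and CLDN7 at most 1.49 and 0.27 CPM in any sample. The 6 markers, mainly KRT8 and KRT18, summed to 166 to 193 CPM in vehicle-treated and 198 to 226 CPM in pentamidine-treated PC3 cells. In DU145 cells the sums were 3526 to 3690 CPM with vehicle and 2503 to 2564 CPM with pentamidine. KLK2, KLK3 and FOLH1, products of androgen-dependent prostate cells, were at 3 counts or fewer in all groups. PTPRC, a marker of leukocytes, was also at 3 counts or fewer in all groups. Markers of other cell types summed to at most 3.13 CPM (fibroblast) and 1.83 CPM (endothelial). The part of the epithelial markers in the results was not tested.

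Levels are given as CPM, read counts relative to the TMM-scaled library size, and changes as log2 fold changes of pentamidine against vehicle with their standard error (SE). A gene was called higher or lower at an adjusted p below 0.05 by the quasi-likelihood test of edgeR, adjusted after Benjamini and Hochberg over all genes tested. In PC3 cells 52 of the 53 mitosis genes fell after pentamidine and none had a positive log2 fold change, where 43.4% of the 13861 genes tested were called, 21.8% lower and 21.6% higher. CDC25C was the gene not called (adjusted p = 0.0804). Without vehicle-treated replicate 1, the sample that stood apart, CDC25C was called too and the median over the 53 genes was -0.56. The median log2 fold change was -0.55, against 0.0046 for all genes tested, and the range ran from -0.96 (ANLN) to -0.18 (CDC25C). None passed a 2-fold change, which 4.75% of all genes did with an adjusted p below 0.05. All 3 pentamidine samples lay below all 3 vehicle samples for 53 of 53 genes, against 26.1% of all genes. The share of all counts that fell on the 53 genes was 1.14% ± 0.026 (SD, n = 3) with vehicle and 0.756% ± 0.0132 with pentamidine.

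In DU145 cells 26 of the 53 fell, 5 rose and 22 were not called. The background in this line was 34.2% called of 14313 genes, 16.9% lower and 17.3% higher, and 2.01% beyond 2-fold, where none of the 53 was found. CENPA, CDC25C, HMMR, CDC25B and CCNB2 were the 5 that rose, and ANLN, ECT2, SMC4, CENPE, CDC20, INCENP, MKI67 and ASPM were the 8 below a log2 fold change of -0.25. The median was -0.088, against 0.0085 for all genes, and the range ran from -0.33 (ANLN) to 0.34 (CENPA). The groups did not overlap for 29 genes in the lower and 5 in the higher direction, against 22.1% and 21.9% of all genes. The 53 genes took 1.03% ± 0.0080 (SD, n = 3) of all counts with vehicle and 0.973% ± 0.0124 with pentamidine. The split depended on the scaling, since scaling by library size alone gave 10 higher and 19 lower and moved the median to -0.038, and the split of all genes from 2473 higher and 2417 lower to 3292 higher and 1657 lower. Without vehicle-treated replicate 1 the median was -0.13, and without vehicle-treated replicate 3 the number of higher genes was 3.

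**Figure D2:**
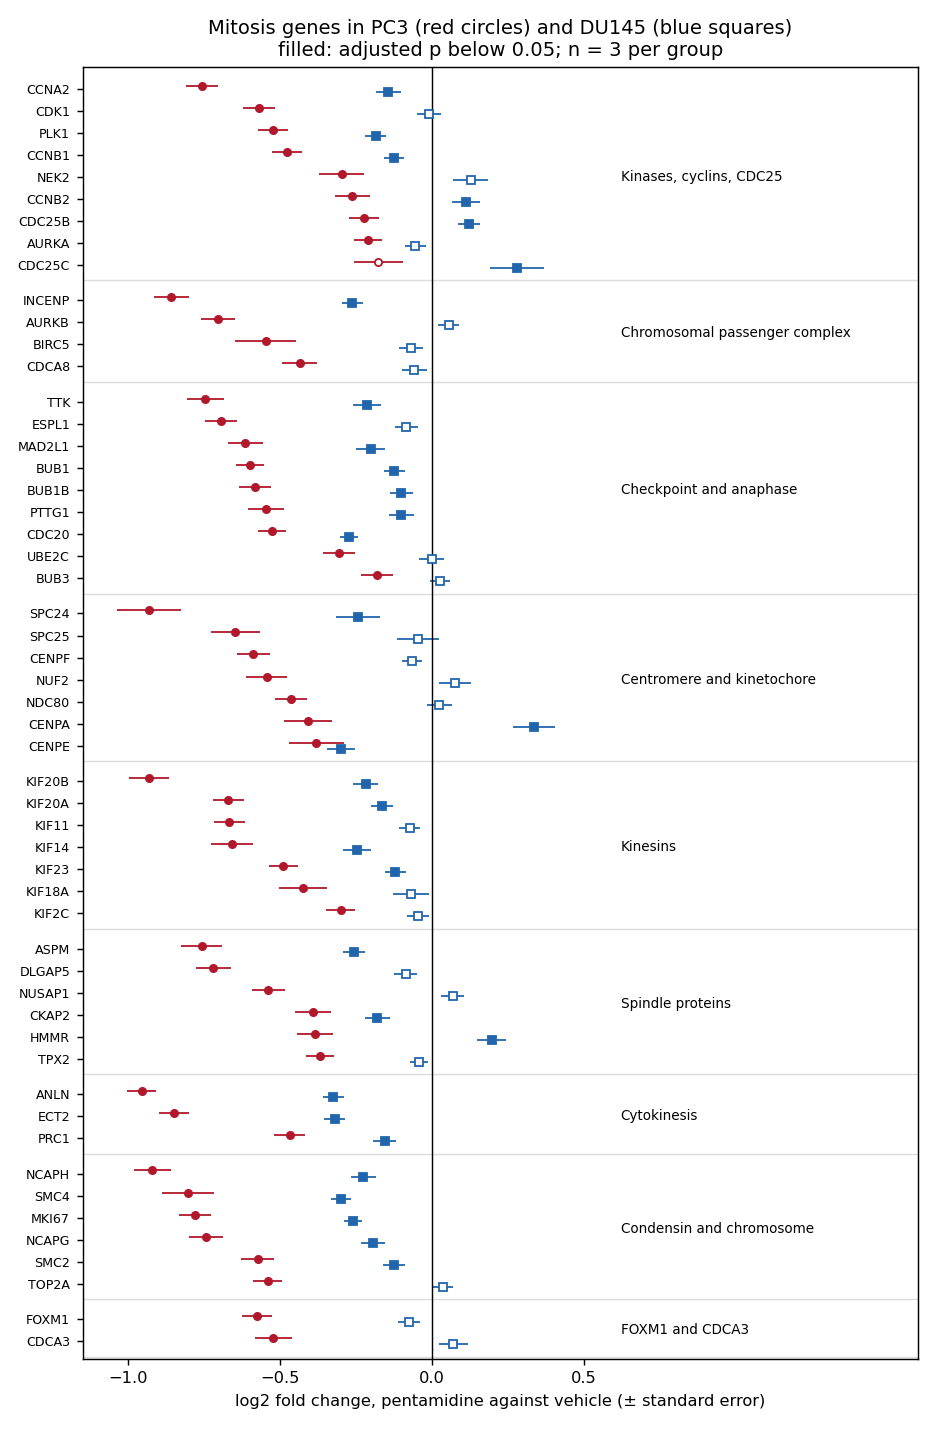
Log2 fold change of each of the 53 mitosis genes, pentamidine against vehicle, with its standard error, in PC3 (red circles) and DU145 cells (blue squares), in 9 role groups. Filled symbols have an adjusted p below 0.05. All PC3 values lie below 0, from -0.96 to -0.18, and the DU145 values lie on both sides, from -0.33 to 0.34.

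Among the mitotic kinases, cyclins and CDC25 phosphatases 8 of 9 fell in PC3 cells, with a median log2 fold change of -0.30, the closest to 0 of the 9 roles. In DU145 cells 3 rose and 3 fell, with a median of -0.011. CCNA2, cyclin A2, which serves S phase and mitotic entry, fell in PC3 cells from 144, 140.03 and 145 CPM with vehicle to 82.00, 85.5 and 85.2 CPM with pentamidine (log2 fold change -0.76, SE 0.0527, adjusted p = 7.93e-11). CCNA2 fell in DU145 cells from 124, 119 and 122 CPM with vehicle to 110.3, 107 and 112 CPM with pentamidine (log2 fold change -0.14, SE 0.0409, adjusted p = 0.00365). CDK1, the kinase that drives mitotic entry, fell in PC3 cells from 137, 136 and 128 CPM with vehicle to 91.9, 88.03 and 89.7 CPM with pentamidine (log2 fold change -0.57). CDK1 in DU145 cells was at 144, 151 and 139.7 CPM with vehicle and at 145, 133 and 151 CPM with pentamidine (log2 fold change -0.01, adjusted p = 0.871), and the groups overlapped. CCNB1, cyclin B1, the partner of CDK1, fell in PC3 cells from 323, 351 and 355 CPM with vehicle to 244, 248 and 244 CPM with pentamidine (log2 fold change -0.48). CCNB1 fell in DU145 cells from 291, 316 and 298 CPM with vehicle to 274, 279.6 and 274 CPM with pentamidine (log2 fold change -0.13). Cyclin A2 and cyclin B1 fell in both lines, and CDK1 in PC3 cells, but scaling by library size alone ended the DU145 calls of CCNA2 (log2 fold change -0.09, adjusted p = 0.0649) and CCNB1 (-0.08, adjusted p = 0.0700). CCNA2 shares 9.08% of its exon bases with EXOSC9, whose count was 39.0% of its own and which fell in both lines (log2 fold changes -0.53 and -0.32), and the part of these bases in the CCNA2 counts was not tested. PLK1, a kinase of centrosome maturation and spindle assembly, fell in PC3 cells from 259, 249 and 247 CPM with vehicle to 183, 174 and 167 CPM with pentamidine (log2 fold change -0.52, SE 0.0492, adjusted p = 1.21e-08). PLK1 fell in DU145 cells from 198, 196 and 198 CPM with vehicle to 177, 172 and 169.9 CPM with pentamidine (log2 fold change -0.19, SE 0.0354, adjusted p = 1.62e-05). AURKA, Aurora A, the kinase of centrosomes and spindle poles, fell in PC3 cells from 241, 247 and 233 CPM with vehicle to 209, 209.99 and 203 CPM with pentamidine (log2 fold change -0.21). AURKA in DU145 cells was at 245, 258 and 249.8 CPM with vehicle and at 248, 239.8 and 235 CPM with pentamidine (log2 fold change -0.06, adjusted p = 0.207), and the groups overlapped. NEK2, a kinase that acts in centrosome separation, fell in PC3 cells from 41.6, 44.8 and 47.8 CPM with vehicle to 36.5, 36.01 and 36.3 CPM with pentamidine (log2 fold change -0.30). NEK2 in DU145 cells was at 50.6, 54.2 and 49.7 CPM with vehicle and at 55.3, 58.8 and 54.02 CPM with pentamidine (log2 fold change 0.13, adjusted p = 0.0755), and the groups overlapped. Of these 3 kinases all fell in PC3 cells and PLK1 alone was called in DU145 cells. CCNB2, cyclin B2, fell in PC3 cells from 104, 112 and 106 CPM with vehicle to 91.7, 90.8 and 85.1 CPM with pentamidine (log2 fold change -0.26). CCNB2 rose in DU145 cells from 90.8, 93.99 and 91.9 CPM with vehicle to 99.1, 93.9 and 105 CPM with pentamidine (log2 fold change 0.11), although the groups overlapped. The DU145 call of CCNB2 was lost in 11 of the alternatives, 5 of them with 1 sample left out. CDC25B, a phosphatase that activates CDK1 at mitotic entry, fell in PC3 cells from 189.9, 175 and 185 CPM with vehicle to 158, 155 and 156 CPM with pentamidine (log2 fold change -0.22). CDC25B rose in DU145 cells from 183, 181 and 175 CPM with vehicle to 191, 195 and 198 CPM with pentamidine (log2 fold change 0.12). CDC25C, another phosphatase that activates CDK1, was at 32.1, 34.5 and 35.8 CPM with vehicle and at 31.5, 31.03 and 27.8 CPM with pentamidine in PC3 cells (log2 fold change -0.18, SE 0.0807, adjusted p = 0.0804). CDC25C rose in DU145 cells from 18.1, 20.5 and 17.6 CPM with vehicle to 22.7, 23.7 and 21.6 CPM with pentamidine (log2 fold change 0.28, SE 0.0878, adjusted p = 0.00928). Its DU145 call was lost without vehicle replicate 3 or without pentamidine replicate 2, at log2 fold changes of 0.23 and 0.24. CDC25C (chr5:138285265-138338355, GRCh38, minus strand) shares 8.78% of its exon bases with FAM53C, whose count was 348% of its own. FAM53C itself rose in PC3 cells by a log2 fold change of 0.24 and was at -0.0017 in DU145 cells. Whether the counting used strand is not given in the sources used here.

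All 4 members of the chromosomal passenger complex, which corrects attachments and later guides cytokinesis, fell in PC3 cells, with a median of -0.63. In DU145 cells only INCENP fell, and the median was -0.065. INCENP, the scaffold of the complex, fell in PC3 cells from 188, 164 and 174 CPM with vehicle to 91.99, 99.98 and 97.01 CPM with pentamidine (log2 fold change -0.86, SE 0.0567, adjusted p = 3.27e-11). INCENP fell in DU145 cells from 249, 236 and 238 CPM with vehicle to 192, 199 and 208 CPM with pentamidine (log2 fold change -0.26, SE 0.0351, adjusted p = 3.53e-09). AURKB, Aurora B, its kinase, fell in PC3 cells from 167, 164 and 167 CPM with vehicle to 104, 108 and 93.4 CPM with pentamidine (log2 fold change -0.70, SE 0.0565, adjusted p = 9.08e-10). AURKB in DU145 cells was at 200.2, 196 and 199 CPM with vehicle and at 208, 202 and 206 CPM with pentamidine (log2 fold change 0.05, SE 0.0346, adjusted p = 0.23), and the groups did not overlap. AURKB (chr17:8204733-8210600, GRCh38, minus strand) thus fell to 0.614 of its vehicle level in PC3 cells, and in DU145 cells its pentamidine samples lay just above the vehicle samples without passing the test. BIRC5, survivin, fell in PC3 cells from 121, 151 and 159 CPM with vehicle to 98.3, 102 and 93.2 CPM with pentamidine (log2 fold change -0.55). BIRC5 in DU145 cells was at 137, 151 and 134 CPM with vehicle and at 135, 133 and 133 CPM with pentamidine (log2 fold change -0.07, adjusted p = 0.178), and the groups overlapped. CDCA8, borealin, fell in PC3 cells from 182, 153 and 167 CPM with vehicle to 119, 129 and 123 CPM with pentamidine (log2 fold change -0.44, SE 0.0586, adjusted p = 2.69e-06). CDCA8 in DU145 cells was at 131, 125 and 128 CPM with vehicle and at 119, 120.4 and 128 CPM with pentamidine (log2 fold change -0.06, SE 0.0404, adjusted p = 0.271), and the groups overlapped.

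Spindle checkpoint and anaphase genes fell in PC3 cells in 9 of 9 cases, with a median of -0.58. In DU145 cells 6 of the 9 fell, with a median of -0.10, and none rose. TTK, the MPS1 kinase that starts checkpoint signalling, fell in PC3 cells from 114, 117 and 104 CPM with vehicle to 64.6, 64.5 and 70.2 CPM with pentamidine (log2 fold change -0.75, SE 0.0612, adjusted p = 1.28e-09). TTK fell in DU145 cells from 93.8, 96.2 and 104 CPM with vehicle to 79.9, 85.7 and 86.8 CPM with pentamidine (log2 fold change -0.21, SE 0.0465, adjusted p = 0.000134). BUB1, a checkpoint kinase at kinetochores, fell in PC3 cells from 229, 229 and 221 CPM with vehicle to 148, 148 and 149.8 CPM with pentamidine (log2 fold change -0.60). BUB1 fell in DU145 cells from 200.2, 207 and 203 CPM with vehicle to 179.8, 186 and 193 CPM with pentamidine (log2 fold change -0.12). BUB1B, BUBR1, a part of the inhibitor of the anaphase-promoting complex, fell in PC3 cells from 190.3, 193 and 181 CPM with vehicle to 119, 129 and 128 CPM with pentamidine (log2 fold change -0.58). BUB1B fell in DU145 cells from 164, 171 and 178 CPM with vehicle to 154, 158 and 164 CPM with pentamidine (log2 fold change -0.10), although the groups overlapped. MAD2L1, MAD2, which holds CDC20 in the inhibitor, fell in PC3 cells from 95.2, 94.3 and 94.6 CPM with vehicle to 59.2, 62.6 and 63.1 CPM with pentamidine (log2 fold change -0.61). MAD2L1 fell in DU145 cells from 86.6, 85.4 and 81.3 CPM with vehicle to 69.1, 73.9 and 76.1 CPM with pentamidine (log2 fold change -0.20). These 4 checkpoint genes fell in both lines. The DU145 call of BUB1B was lost in 7 alternatives, and that of BUB1 with scaling by library size alone (log2 fold change -0.07, adjusted p = 0.101). BUB3, the partner of BUB1 and BUBR1, fell in PC3 cells from 238, 261 and 273 CPM with vehicle to 224, 225 and 228 CPM with pentamidine (log2 fold change -0.18, SE 0.0526, adjusted p = 0.00742). BUB3 in DU145 cells was at 279, 282 and 270.5 CPM with vehicle and at 291, 282 and 271 CPM with pentamidine (log2 fold change 0.03, SE 0.0332, adjusted p = 0.598), and the groups overlapped. BUB3 had the highest log2 fold change of the 9 genes in both lines. CDC20, the activator of the anaphase-promoting complex and target of the checkpoint, fell in PC3 cells from 439, 451 and 468 CPM with vehicle to 314, 316 and 309.8 CPM with pentamidine (log2 fold change -0.53, SE 0.0461, adjusted p = 3.60e-09). CDC20 fell in DU145 cells from 735, 726 and 709 CPM with vehicle to 597, 589 and 601 CPM with pentamidine (log2 fold change -0.28, SE 0.0294, adjusted p = 2.03e-12). CDC20 had the highest level per kilobase of exon of the 53 genes in all 4 groups, and its copy CDC20P1 took 0.893% as many counts. UBE2C, its ubiquitin-conjugating enzyme, fell in PC3 cells from 148, 162 and 159 CPM with vehicle to 128, 122 and 128 CPM with pentamidine (log2 fold change -0.31). UBE2C in DU145 cells was at 118, 125 and 112 CPM with vehicle and at 115, 116 and 123 CPM with pentamidine (log2 fold change -0.0019, adjusted p = 0.978), and the groups overlapped. PTTG1, securin, which is destroyed at anaphase onset, fell in PC3 cells from 139, 154 and 151 CPM with vehicle to 102, 106 and 94.4 CPM with pentamidine (log2 fold change -0.55). PTTG1 fell in DU145 cells from 113, 120.1 and 119 CPM with vehicle to 109, 110.2 and 108 CPM with pentamidine (log2 fold change -0.10). ESPL1, separase, the protease that cuts cohesin, fell in PC3 cells from 146, 147 and 152 CPM with vehicle to 89.4, 90.5 and 93.8 CPM with pentamidine (log2 fold change -0.70). ESPL1 in DU145 cells was at 162, 150.1 and 157 CPM with vehicle and at 145, 147 and 148 CPM with pentamidine (log2 fold change -0.09, adjusted p = 0.0715), and the groups did not overlap. The DU145 call of PTTG1 was lost in 12 alternatives.

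Centromere and kinetochore genes fell in 7 of 7 cases in PC3 cells, with a median of -0.54. In DU145 cells SPC24 and CENPE fell, CENPA rose and 4 were not called, and the median was -0.047. SPC24, a subunit of the NDC80 complex that binds microtubules, fell in PC3 cells from 25.1, 30.7 and 29.3 CPM with vehicle to 14.99, 16.4 and 13.04 CPM with pentamidine (log2 fold change -0.93, SE 0.105, adjusted p = 2.13e-07). SPC24 fell in DU145 cells from 31.6, 34.1 and 33.5 CPM with vehicle to 28.5, 26.4 and 28.6 CPM with pentamidine (log2 fold change -0.24, SE 0.0721, adjusted p = 0.00537). SPC25, its partner subunit, fell in PC3 cells from 42.2, 47.8 and 49.7 CPM with vehicle to 27.8, 31.3 and 29.7 CPM with pentamidine (log2 fold change -0.65). SPC25 in DU145 cells was at 34.1, 36.9 and 37.7 CPM with vehicle and at 35.9, 37.4 and 31.6 CPM with pentamidine (log2 fold change -0.05, adjusted p = 0.645), and the groups overlapped. NDC80, HEC1, the microtubule-binding subunit, fell in PC3 cells from 158, 157 and 151 CPM with vehicle to 106, 114 and 117 CPM with pentamidine (log2 fold change -0.47). NDC80 in DU145 cells was at 126, 124 and 124 CPM with vehicle and at 128, 123 and 128 CPM with pentamidine (log2 fold change 0.02, adjusted p = 0.688), and the groups overlapped. NUF2, the partner of NDC80, fell in PC3 cells from 76.4, 77.3 and 67.7 CPM with vehicle to 49.98, 49.03 and 52.4 CPM with pentamidine (log2 fold change -0.54). NUF2 in DU145 cells was at 60.9, 63.6 and 58.9 CPM with vehicle and at 66.6, 63.4 and 62.7 CPM with pentamidine (log2 fold change 0.08, adjusted p = 0.273), and the groups overlapped. All 4 subunits of the NDC80 complex fell in PC3 cells, whereas in DU145 cells SPC24 alone was called. CENPA, the histone H3 variant that marks centromeres, fell in PC3 cells from 41.8, 37.2 and 37.5 CPM with vehicle to 27.6, 31.2 and 28.6 CPM with pentamidine (log2 fold change -0.41, SE 0.0786, adjusted p = 0.000207). CENPA rose in DU145 cells from 30.9, 30.8 and 35.3 CPM with vehicle to 42.04, 41.4 and 38.7 CPM with pentamidine (log2 fold change 0.34, SE 0.0676, adjusted p = 4.38e-05). Its 3 DU145 pentamidine samples all lay above the 3 vehicle samples, the reverse of PC3 cells. CENPA (chr2:26764289-26801067, GRCh38, plus strand) shares 6.96% of its exon bases with SLC35F6, whose count was 239% of its own and which rose in both lines (log2 fold changes 0.46 and 0.38). The part of these shared bases in the CENPA counts was not tested. CENPE, the kinetochore motor, fell in PC3 cells from 133, 120.4 and 102 CPM with vehicle to 85.9, 86.7 and 99.8 CPM with pentamidine (log2 fold change -0.38, SE 0.0894, adjusted p = 0.00483). CENPE fell in DU145 cells from 101, 105 and 113 CPM with vehicle to 83.6, 87.6 and 87.4 CPM with pentamidine (log2 fold change -0.30, SE 0.0453, adjusted p = 1.08e-07). CENPF, a large protein of the outer kinetochore, fell in PC3 cells from 335, 324 and 302 CPM with vehicle to 198, 212 and 227 CPM with pentamidine (log2 fold change -0.59). CENPF in DU145 cells was at 375, 355 and 375 CPM with vehicle and at 343, 359 and 349.9 CPM with pentamidine (log2 fold change -0.07, adjusted p = 0.0986), and the groups overlapped. CENPE (chr4:103105806-103198409, GRCh38, minus strand) was the gene whose values came closest in the 2 lines.

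The mitotic kinesins fell in 7 of 7 cases in PC3 cells, with a median of -0.66. In DU145 cells 4 of the 7 fell and 3 were not called, with a median of -0.12. KIF20B, a kinesin of late mitosis, fell in PC3 cells from 179.9, 163 and 145 CPM with vehicle to 81.8, 83.8 and 89.9 CPM with pentamidine (log2 fold change -0.93, SE 0.0659, adjusted p = 4.97e-10). KIF20B fell in DU145 cells from 132, 135 and 143 CPM with vehicle to 114, 120.4 and 117 CPM with pentamidine (log2 fold change -0.22, SE 0.0405, adjusted p = 9.57e-06). KIF11, Eg5, which pushes spindle poles apart, fell in PC3 cells from 257, 243 and 229 CPM with vehicle to 150.2, 148 and 159.5 CPM with pentamidine (log2 fold change -0.67). KIF11 in DU145 cells was at 225, 232 and 236 CPM with vehicle and at 213, 224 and 219 CPM with pentamidine (log2 fold change -0.07, adjusted p = 0.0887), and the groups did not overlap. KIF20A, MKLP2, which carries the passenger complex to the midzone, fell in PC3 cells from 264, 254 and 276 CPM with vehicle to 158, 165 and 174 CPM with pentamidine (log2 fold change -0.67). KIF20A fell in DU145 cells from 204, 210.4 and 221 CPM with vehicle to 186, 195 and 184 CPM with pentamidine (log2 fold change -0.17). KIF14, a kinesin of the midbody, fell in PC3 cells from 118, 120.1 and 103 CPM with vehicle to 72.5, 65.5 and 77.7 CPM with pentamidine (log2 fold change -0.66, SE 0.0687, adjusted p = 1.14e-07). KIF14 fell in DU145 cells from 96.01, 107 and 101 CPM with vehicle to 85.1, 83.3 and 86.98 CPM with pentamidine (log2 fold change -0.25, SE 0.0456, adjusted p = 8.25e-06). These 4 kinesins lay at -0.66 or lower in PC3 cells, and their DU145 values spread from -0.25 to -0.07. KIF23, MKLP1, part of the centralspindlin complex, fell in PC3 cells from 192, 191 and 182 CPM with vehicle to 136, 134 and 132 CPM with pentamidine (log2 fold change -0.49). KIF23 fell in DU145 cells from 201, 213 and 209 CPM with vehicle to 190.4, 187 and 193 CPM with pentamidine (log2 fold change -0.12). KIF18A, a kinesin that dampens chromosome oscillation, fell in PC3 cells from 42.7, 36.7 and 37.02 CPM with vehicle to 28.1, 30.2 and 28.2 CPM with pentamidine (log2 fold change -0.42). KIF18A in DU145 cells was at 46.8, 48.5 and 49.4 CPM with vehicle and at 44.1, 45.4 and 47.98 CPM with pentamidine (log2 fold change -0.07, adjusted p = 0.387), and the groups overlapped. KIF2C, MCAK, which depolymerizes microtubules, fell in PC3 cells from 242, 248 and 254 CPM with vehicle to 196, 208 and 197 CPM with pentamidine (log2 fold change -0.30, SE 0.0484, adjusted p = 2.53e-05). KIF2C in DU145 cells was at 183, 182 and 177 CPM with vehicle and at 175, 171 and 176 CPM with pentamidine (log2 fold change -0.05, SE 0.0358, adjusted p = 0.321), and the groups did not overlap. KIF2C was the kinesin nearest to its vehicle level in both lines. The DU145 call of KIF23 was lost with scaling by library size alone (log2 fold change -0.07, adjusted p = 0.110).

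Spindle proteins fell in 6 of 6 cases in PC3 cells, with a median of -0.47. In DU145 cells ASPM and CKAP2 fell, HMMR rose and 3 were not called, and the median was -0.066. ASPM, a spindle pole protein, fell in PC3 cells from 220.1, 214 and 184 CPM with vehicle to 119.9, 112 and 132 CPM with pentamidine (log2 fold change -0.76, SE 0.0679, adjusted p = 1.35e-07). ASPM fell in DU145 cells from 221, 219.6 and 237 CPM with vehicle to 181, 183 and 202 CPM with pentamidine (log2 fold change -0.26, SE 0.0375, adjusted p = 6.34e-08). DLGAP5, HURP, which stabilizes kinetochore fibres, fell in PC3 cells from 154, 164 and 152 CPM with vehicle to 87.5, 101 and 96.1 CPM with pentamidine (log2 fold change -0.72). DLGAP5 in DU145 cells was at 171, 185 and 187 CPM with vehicle and at 172, 172 and 166 CPM with pentamidine (log2 fold change -0.09, adjusted p = 0.0598), and the groups overlapped. NUSAP1, a microtubule-bundling protein, fell in PC3 cells from 218, 233 and 221 CPM with vehicle to 142, 157 and 163 CPM with pentamidine (log2 fold change -0.54). NUSAP1 in DU145 cells was at 142, 145 and 150.2 CPM with vehicle and at 151, 157 and 148 CPM with pentamidine (log2 fold change 0.07, adjusted p = 0.172), and the groups overlapped. The exons of NUSAP1 overlap those of another annotated gene over 62.2% of their bases, whose count was 0% of its own. CKAP2, a microtubule-associated protein, fell in PC3 cells from 149, 146 and 129.5 CPM with vehicle to 105, 105 and 113 CPM with pentamidine (log2 fold change -0.39). CKAP2 fell in DU145 cells from 119.8, 129 and 129.9 CPM with vehicle to 109, 114 and 109.7 CPM with pentamidine (log2 fold change -0.18). HMMR, a hyaluronan receptor that also binds the spindle, fell in PC3 cells from 116, 113 and 105 CPM with vehicle to 80.5, 84.1 and 90.1 CPM with pentamidine (log2 fold change -0.39, SE 0.0588, adjusted p = 1.31e-05). HMMR rose in DU145 cells from 69.9, 72.7 and 72.6 CPM with vehicle to 80.1, 78.9 and 86.8 CPM with pentamidine (log2 fold change 0.20, SE 0.0489, adjusted p = 0.000938). HMMR, like CENPA and CDC25B, moved in opposite directions in the 2 lines without overlap of the groups in either. TPX2, the activator of Aurora A on the spindle, fell in PC3 cells from 654, 677 and 693 CPM with vehicle to 524, 521 and 517 CPM with pentamidine (log2 fold change -0.37, SE 0.0454, adjusted p = 7.18e-07). TPX2 in DU145 cells was at 657, 662 and 641 CPM with vehicle and at 628, 642 and 625 CPM with pentamidine (log2 fold change -0.04, SE 0.0295, adjusted p = 0.258), and the groups overlapped. TPX2 followed CDC20 in level per kilobase of exon in all 4 groups.

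The 3 cytokinesis genes fell in both lines and had the lowest role median in each, -0.85 in PC3 cells and -0.32 in DU145 cells. ANLN, anillin, the scaffold of the contractile ring, fell in PC3 cells from 303, 311 and 289 CPM with vehicle to 152, 154 and 157 CPM with pentamidine (log2 fold change -0.96, SE 0.0481, adjusted p = 2.45e-13). ANLN fell in DU145 cells from 249.5, 245 and 238 CPM with vehicle to 192, 195 and 195 CPM with pentamidine (log2 fold change -0.33, SE 0.0342, adjusted p = 1.11e-12). ANLN (chr7:36389806-36453791, GRCh38, plus strand) had the lowest log2 fold change of the 53 genes in both lines. ECT2, the exchange factor that activates RhoA at the cell equator, fell in PC3 cells from 345, 342 and 307 CPM with vehicle to 186, 179 and 184 CPM with pentamidine (log2 fold change -0.85). ECT2 fell in DU145 cells from 309, 327 and 336 CPM with vehicle to 249, 265 and 261 CPM with pentamidine (log2 fold change -0.32). PRC1, which bundles microtubules of the midzone, fell in PC3 cells from 202, 211 and 203 CPM with vehicle to 148, 155 and 141 CPM with pentamidine (log2 fold change -0.47, SE 0.0511, adjusted p = 1.20e-07). PRC1 fell in DU145 cells from 164, 175 and 169.9 CPM with vehicle to 153, 154 and 148 CPM with pentamidine (log2 fold change -0.16, SE 0.0373, adjusted p = 0.000532). ANLN and ECT2 sat close together in each line, and PRC1 changed less in both. The exons of PRC1 overlap other annotated genes over 58.4% of their bases, whose counts came to at most 0.206% of its own.

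Condensin and chromosome genes fell in 6 of 6 cases in PC3 cells, with a median of -0.76, and in 5 of 6 in DU145 cells, with a median of -0.21. NCAPH, the kleisin of condensin I, fell in PC3 cells from 135, 149 and 146 CPM with vehicle to 76.7, 69.4 and 79.9 CPM with pentamidine (log2 fold change -0.92, SE 0.0616, adjusted p = 4.03e-11). NCAPH fell in DU145 cells from 133, 143 and 127 CPM with vehicle to 114, 115 and 115 CPM with pentamidine (log2 fold change -0.23, SE 0.0414, adjusted p = 7.76e-06). NCAPG, a HEAT-repeat subunit of condensin I, fell in PC3 cells from 184, 171 and 169 CPM with vehicle to 99.3, 101 and 112 CPM with pentamidine (log2 fold change -0.74). NCAPG fell in DU145 cells from 143, 156 and 151 CPM with vehicle to 134, 128 and 131 CPM with pentamidine (log2 fold change -0.19). SMC4, an ATPase shared by both condensins, fell in PC3 cells from 386, 331 and 304 CPM with vehicle to 186, 185 and 212 CPM with pentamidine (log2 fold change -0.80, SE 0.0859, adjusted p = 4.66e-05). SMC4 fell in DU145 cells from 337, 339 and 359.9 CPM with vehicle to 273, 281 and 285 CPM with pentamidine (log2 fold change -0.30, SE 0.0328, adjusted p = 5.06e-12). SMC2, its partner ATPase, fell in PC3 cells from 234, 216 and 214 CPM with vehicle to 139.6, 146 and 159 CPM with pentamidine (log2 fold change -0.57). SMC2 fell in DU145 cells from 163, 164 and 167 CPM with vehicle to 147, 155 and 149 CPM with pentamidine (log2 fold change -0.13). All 4 condensin genes fell in both lines, each further in PC3 cells, although the DU145 call of SMC2 was lost with scaling by library size alone (log2 fold change -0.08, adjusted p = 0.108). NCAPG shares 33.1% of its exon bases with LCORL, whose count was 15.04% of its own, and SMC4 shares 25.6% with IFT80 and TRIM59, at up to 5.36%. TOP2A, topoisomerase II alpha, which untangles sister chromatids, fell in PC3 cells from 617, 628 and 579 CPM with vehicle to 399.6, 415 and 435 CPM with pentamidine (log2 fold change -0.54, SE 0.0485, adjusted p = 5.40e-09). TOP2A in DU145 cells was at 349, 358 and 371 CPM with vehicle and at 363, 377.3 and 363 CPM with pentamidine (log2 fold change 0.04, SE 0.0319, adjusted p = 0.414), and the groups overlapped. MKI67, Ki-67, which coats mitotic chromosomes and is used as a marker of proliferation, fell in PC3 cells from 1244, 1108 and 1127 CPM with vehicle to 659.96, 637 and 722 CPM with pentamidine (log2 fold change -0.78). MKI67 fell in DU145 cells from 1110.0, 1037 and 1089 CPM with vehicle to 856, 915 and 923 CPM with pentamidine (log2 fold change -0.26). TOP2A and MKI67, both used as markers of dividing cells, parted in DU145 cells, where TOP2A was not called and MKI67 fell.

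The last 2 genes are regulators. FOXM1, a transcription factor of mitotic genes, fell in PC3 cells from 213, 195 and 204 CPM with vehicle to 138, 135 and 136 CPM with pentamidine (log2 fold change -0.58, SE 0.0494, adjusted p = 2.72e-09). FOXM1 in DU145 cells was at 189.6, 194 and 201 CPM with vehicle and at 184, 183 and 185 CPM with pentamidine (log2 fold change -0.08, SE 0.0355, adjusted p = 0.0852), and the groups did not overlap. CDCA3, a ubiquitin ligase adaptor that targets WEE1, fell in PC3 cells from 89.5, 91.6 and 92.2 CPM with vehicle to 63.6, 58.9 and 67.02 CPM with pentamidine (log2 fold change -0.52, SE 0.0614, adjusted p = 3.76e-07). CDCA3 in DU145 cells was at 80.6, 76.05 and 83.1 CPM with vehicle and at 83.01, 86.5 and 81.2 CPM with pentamidine (log2 fold change 0.07, SE 0.0476, adjusted p = 0.273), and the groups overlapped. Both fell in PC3 cells, and neither passed the test in DU145 cells. FOXM1 shares 15.9% of its exon bases with ITFG2, whose count was 14.1% of its own.

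**Figure D3:**
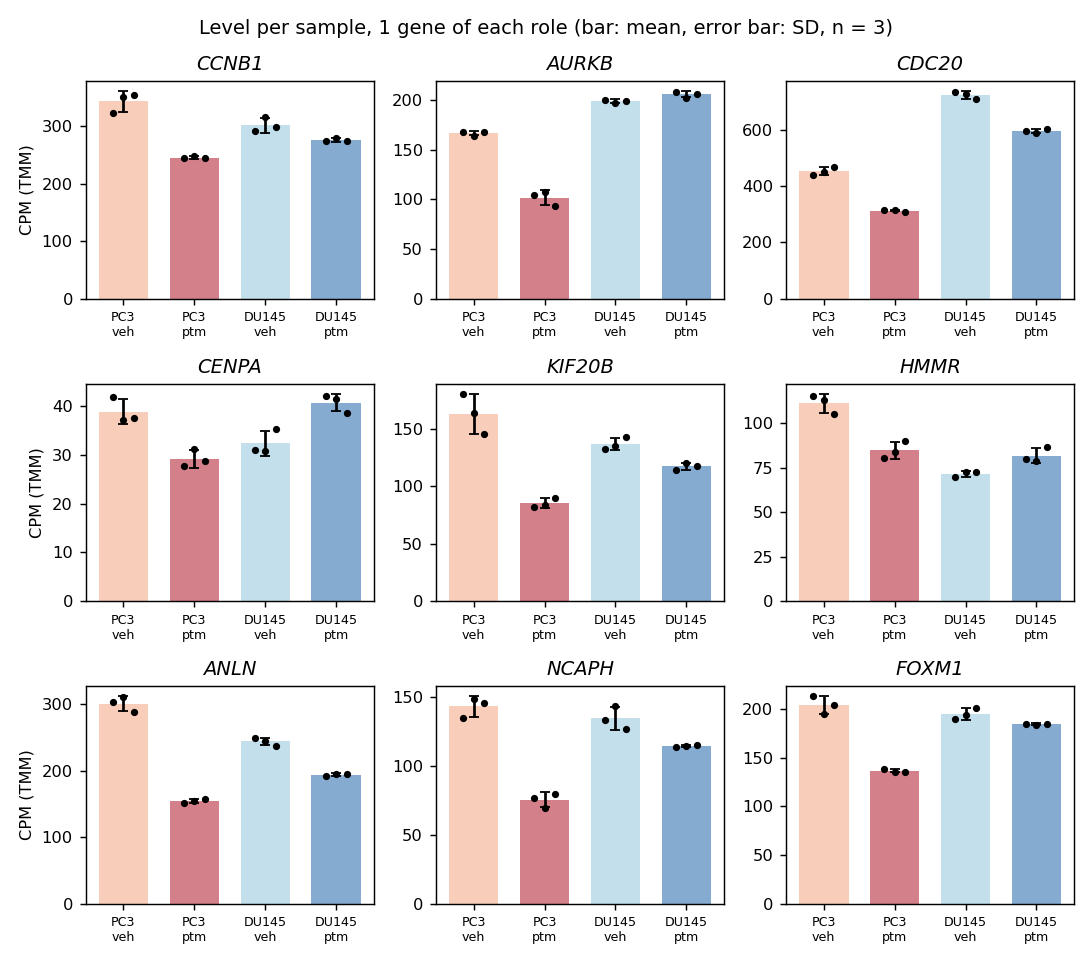
Level in CPM, TMM scaled, of 1 gene from each of the 9 roles in every sample (points), with the group mean (bar) and SD (error bar, n = 3), for vehicle (veh) and pentamidine (ptm). In PC3 cells the pentamidine points lie below the vehicle points for all 9 genes, and in DU145 cells those of CENPA, HMMR and AURKB lie above them.

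The responses of the lines were compared directly by the interaction of treatment and line in a model of all 12 samples. The log2 fold change was lower in PC3 than in DU145 cells for 53 of 53 genes, and the difference passed the test for 52, all in that direction, where 10.4% of 15226 genes passed in it. The median difference was -0.50, and without vehicle-treated PC3 replicate 1 it was -0.47 with 50 genes called. AURKB (difference -0.76, SE 0.0638, adjusted p = 2.51e-12), CENPA (-0.74) and KIF20B (-0.71) differed most. CENPE did not pass (difference -0.08, SE 0.118, adjusted p = 0.698). AURKA and CKAP2 passed narrowly (adjusted p = 0.0445 and 0.0325), and their calls were lost in 15 and 10 alternatives, among them single samples of either line left out. That of BUB3 was lost without vehicle-treated DU145 replicate 3, at -0.18. By role the median difference was -0.60 for the kinetochore, -0.54 for the passenger complex, spindle, condensin and regulator groups, -0.53 for cytokinesis, -0.45 for the checkpoint, -0.41 for the kinesins and -0.37 for kinases and cyclins. Set gene by gene, 26 fell in both lines, and 22 fell in PC3 cells and were not called in DU145 cells. Another 4 fell in PC3 and rose in DU145 cells (CCNB2, CDC25B, CENPA and HMMR). Of all genes tested 21.8% fell in PC3 cells, and 16.9% fell and 17.3% rose in DU145 cells. The shares of all genes in the joint classes were not counted, so nothing is read from the sizes of these classes.

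Genes that fell further in PC3 cells tended to lie lower in DU145 cells, with Pearson's r = 0.66 and Spearman's rho = 0.67 across the 53 genes, which are not independent replicates. In DU145 cells the log2 fold change ran against the exon length of the genes (r = -0.41, rho = -0.43 across 53 genes, against -0.022 and -0.096 across 14286 genes), so that longer genes lay lower. In PC3 cells these were -0.26 and -0.28. Within samples, the deviation of the 53 genes from the vehicle mean correlated with log2 exon length at r = -0.45, -0.37 and -0.36 in the DU145 pentamidine samples, and at 0.12, -0.36 and 0.24 in the vehicle samples. In PC3 cells it was 0.48, -0.08 and -0.50 with vehicle and -0.28, -0.38 and -0.08 with pentamidine. The samples of a line share the same vehicle mean, which is taken over the vehicle samples themselves, so these correlations are not independent. The part of length in the responses was not tested.

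**Figure D4:**
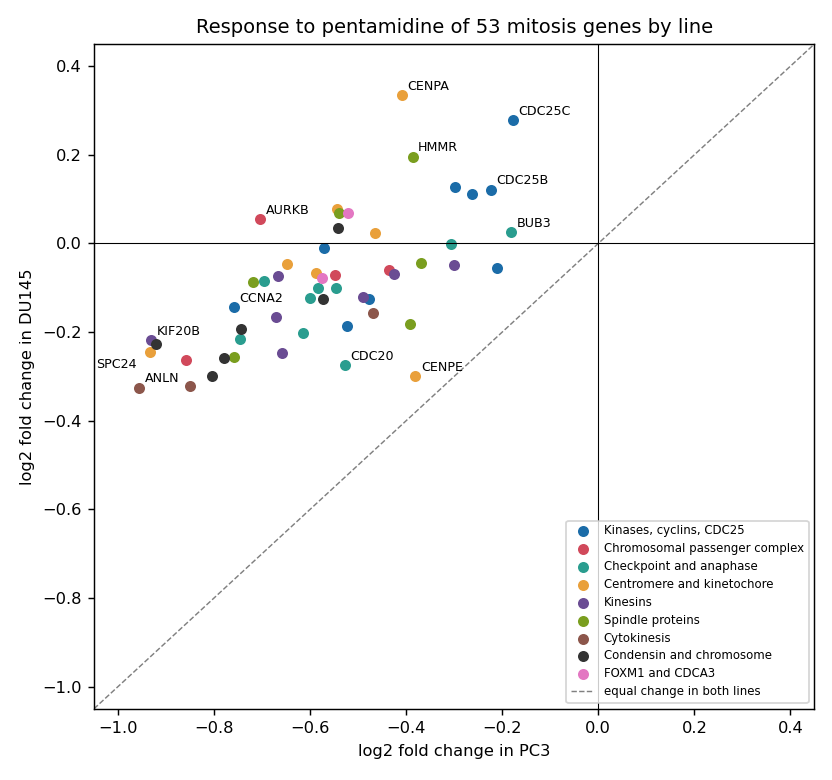
Log2 fold change with pentamidine in PC3 (horizontal) and DU145 cells (vertical) of the 53 mitosis genes, coloured by role, with a dashed line of equal change. All points lie above the dashed line, CENPE closest to it (-0.38 in PC3, -0.30 in DU145 cells).

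The median deviation of the 53 genes from the vehicle mean, per sample, was -0.56, -0.56 and -0.55 log2 units in the PC3 pentamidine samples, and 0.02, 0.02 and -0.03 in the vehicle samples of that line. All 53 genes lay below the vehicle mean in each of these pentamidine samples, and 20, 19 and 32 did in the vehicle samples. In DU145 cells it was -0.12, -0.09 and -0.10 with pentamidine and -0.03, 0.01 and 0.01 with vehicle, with 39, 40 and 38 genes below the vehicle mean in the pentamidine samples and 36, 22 and 22 in the vehicle samples. All 3 pentamidine samples of PC3 cells thus shared the decrease. Those of DU145 cells also lay below their vehicle samples in the median, by a smaller step, although vehicle replicate 1 had 36 genes below the mean. The mean came from the same vehicle samples, so their deviations centre on it by construction. The share of all genes below it was not counted, so the numbers of genes below it are descriptions only.

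Levels before treatment were compared between the lines. None of the 53 genes differed by more than 2-fold, which 19.2% of all genes tested did with an adjusted p below 0.05. In vehicle-treated cells 29 of the 53 genes were higher in PC3 than in DU145 cells and 12 were lower, with a median log2 difference of 0.14, where 65.3% of 14394 genes were called, 31.5% higher and 33.8% lower. CDC25C was the furthest in the higher direction (log2 difference 0.84, SE 0.0879), followed by TOP2A (0.73, 617, 628 and 579 CPM in PC3 against 349, 358 and 371 CPM in DU145 cells) and HMMR (0.61). CDC20 was the furthest in the lower direction (-0.70), followed by INCENP (-0.48) and KIF18A (-0.34). The groups did not overlap for any of these 6 genes, nor for 34.7% (higher) and 34.4% (lower) of all genes. Scaling by library size alone gave 35 higher and 6 lower, and a median of 0.22, and without vehicle-treated PC3 replicate 1 there were 29 higher and 11 lower. These comparisons share the vehicle samples with those of treatment, so they are set side by side only.

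Per kilobase of exon, CDC20 and TPX2 were the most abundant of the 53 in all 4 groups, at 222 and 187 CPM per kilobase in vehicle-treated PC3 cells, and at 355 and 181 in vehicle-treated DU145 cells. With pentamidine CDC20 stood at 154 and 292 CPM per kilobase in PC3 and DU145 cells. KIF18A, SPC24, CDC25C and CENPE were among the 6 lowest in all 4 groups, from 5.22 (SPC24, pentamidine-treated PC3 cells) to 12.6 CPM per kilobase (CENPE, vehicle-treated PC3 cells).

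Other genes of cell division were counted from lists beside the 53. Of 92 further mitosis genes 72 fell (78.3%) and 2 rose (2.17%) in PC3 cells, with a median of -0.44, against 21.8% and 21.6% of all genes. In DU145 cells 28 fell (30.4%) and 7 rose (7.61%), with a median of -0.060, against 16.9% and 17.3% of all genes. The interaction was called for 63 of the 92 in the lower and 1 in the higher direction, against 10.4% of all genes in each. CENPP, a centromere protein, fell furthest in PC3 cells, from 17.2 ± 1.10 to 9.46 ± 0.753 CPM (SD, n = 3, log2 fold change -0.86). DSN1, a subunit of the MIS12 kinetochore complex, and SPAG5 (astrin) followed at -0.77 each. CDC16, a subunit of the anaphase-promoting complex, and CLASP1, a microtubule plus-end protein, rose in PC3 cells, by 0.21 and 0.16. In DU145 cells CKAP2L fell from 102 ± 5.80 to 66.9 ± 1.19 CPM (log2 fold change -0.61), further than any of the 53, and CENPI and ZW10 fell by 0.31 each on the log2 scale. CENPH, ANAPC11 and PMF1 rose in DU145 cells, with log2 fold changes of 0.36, 0.35 and 0.28.

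Regulators of their transcription formed a list of 21 genes. In PC3 cells 11 fell and 3 rose, with a median of -0.20, and in DU145 cells 6 fell and 3 rose, with a median of 0.018. The share that rose was 14.3% in each line, against 21.6% and 17.3% of all genes, and with 3 genes in each line nothing is read from it. The share that fell was 52.4% against 21.8% in PC3 cells and 28.6% against 16.9% in DU145 cells. E2F8 and E2F2, of the E2F family, passed a 2-fold decrease in PC3 cells (log2 fold change -1.02 each), E2F8 from 28.7 ± 2.47 to 14.1 ± 1.21 CPM and E2F2 from 39.9 ± 1.56 to 19.6 ± 1.605 CPM. Over 16 alternatives these values ranged from -1.08 to -0.95 (E2F8) and from -1.051 to -0.95 (E2F2), so that the 2-fold limit was not passed in all of them, while both stayed below an adjusted p of 0.05. MYBL2, which encodes B-MYB, fell from 250.3 ± 15.6 to 154 ± 3.13 CPM (-0.69). CDKN1A, which encodes the CDK inhibitor p21, rose in both lines, from 54.8 ± 4.52 to 101 ± 5.73 CPM in PC3 cells (0.89) and from 107.5 ± 5.81 to 139 ± 1.65 CPM in DU145 cells (0.37). NFYC, a subunit of the CCAAT-binding NF-Y, rose in both lines (0.22 and 0.15) and NFYA in DU145 cells (0.23). LIN37, a MuvB subunit, was called higher in PC3 cells (1.09) from counts of 9, 7 and 6 to 17, 15 and 15, a call lost in 8 of 15 alternatives. E2F7 (-0.25), E2F8 (-0.24) and TFDP1 (-0.20) fell furthest in DU145 cells, where the call of E2F8 was lost without pentamidine replicate 3.

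DNA replication genes, which peak earlier in the cycle, fell in 48 of 51 cases in PC3 cells, with a median of -0.63, and none rose. The shares of all genes in that line were 21.8% and 21.6%. In DU145 cells 17 fell (33.3%) and 3 rose (5.88%), with a median of -0.078, against 16.9% and 17.3% of all genes. The interaction was called lower for 47 of 51, against 10.4% of all genes. A 2-fold change in either direction with an adjusted p below 0.05 was passed by 4.75% of all genes in PC3 cells. Among the replication genes 6 passed a 2-fold decrease in that line, which none of the 53 mitosis genes did. These were MCM10 (log2 fold change -1.26), FEN1 (-1.25), CLSPN (-1.23), ORC1 (-1.22), GINS1 (-1.14) and MCM4 (-1.11), with roles in the licensing, firing and progress of replication forks. FEN1, the flap endonuclease, went from 139 ± 9.19 to 58.2 ± 1.99 CPM, and MCM4, a helicase subunit, from 419.9 ± 9.17 to 194.5 ± 3.97 CPM. In DU145 cells MCM10 (-0.46), FEN1 (-0.41) and CLSPN (-0.41) were again the furthest in the lower direction, and CDT1 (0.17), TIMELESS (0.13) and MCM5 (0.13) rose.

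**Figure D5:**
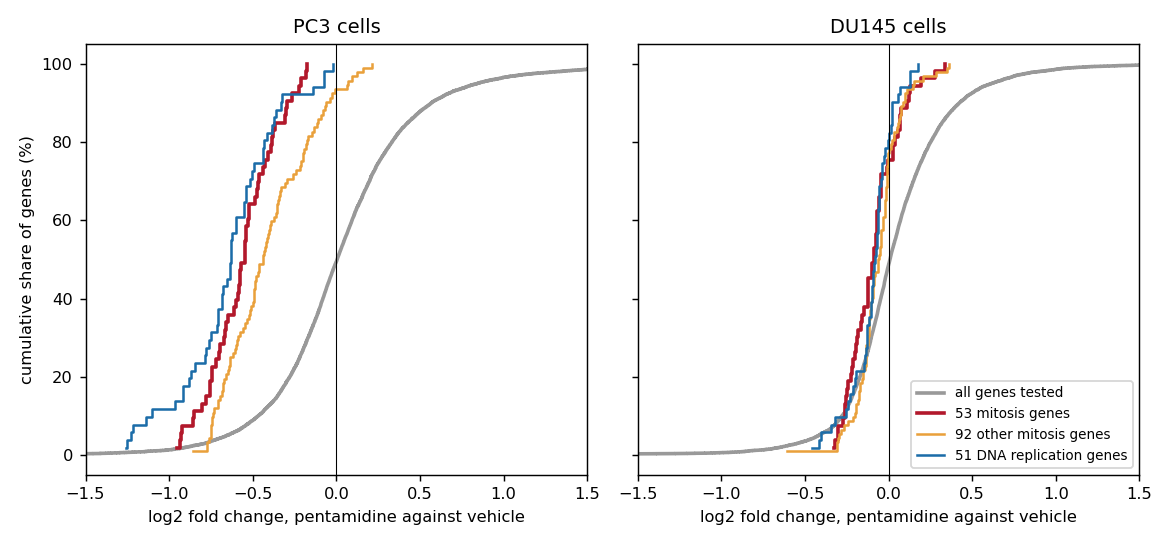
Cumulative share of genes (%) by log2 fold change with pentamidine in PC3 (left) and DU145 cells (right), for all genes tested (grey), the 53 mitosis genes (red), 92 other mitosis genes (orange) and 51 DNA replication genes (blue). In PC3 cells the 3 lists lie left of all genes, with medians of -0.55, -0.44 and -0.63 against 0.0046, and in DU145 cells they lie close to it, with medians of -0.088, -0.060 and -0.078 against 0.0085.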

How the data were processed

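RNA-seq of both lines with and without pentamidine was used, with 3 samples in each of 4 groups taken from the labels. The raw read counts per gene were deposited by the authors without normalization. According to the submitters' processing notes and the study's methods, reads were aligned with HISAT2 2.1.0 to GRCh38 and tested with DESeq 1.18.1. The counting program and its use of strand are not given in the sources used here. A further deposited table, named for FPKM, and 2 tables of the authors' fold changes and p-values were not used. Of 33639 lines of counts, 44 held no Ensembl identifier, and after identical entries were merged 32077 genes were kept. All 53 genes had the same position in GENCODE 29, which gave exon lengths. Promoters of chromosome 8 were left out of the motif shares.

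Counts were tested with edgeR 4.0.16 in R 4.3.3 (quasi-likelihood test, TMM scaling, filterByExpr at a minimum count of 10, Benjamini-Hochberg adjustment over all genes), per line on its own 6 samples and for the interaction on all 12. At sample totals of 13514195 to 15131436 the limit of detection was set at 3 counts, for counting error only. The fits were tested on simulated data. The alternatives were DESeq2 1.42.0, RLE scaling, library size alone, TMM without mitochondria-encoded genes, 2 other filters, the replicate number as a block, limma 3.58.1 on log2(CPM + 1) and log2(CPM + 0.1), all 12 samples in one fit, other thresholds and each sample left out in turn.

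The members, lists and tests were chosen with earlier results of these data known. Sample values were printed for the lowest and highest gene of each role and line, for genes past a log2 fold change of 1 in either direction, for those past the interaction test and for the 3 furthest each way between the vehicle groups. From other lists the 3 furthest in each direction per line and those past a 2-fold change were named. A few markers are not reported here.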

Additional observations from a re-analysis of the deposited data

Results flagged for a closer look

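The responses of 52 of the 53 mitosis genes to pentamidine differed between the lines by the interaction test in edgeR (adjusted p below 0.05), which is why they are given here, and all 52 differences were negative. Each value is the log2 fold change in PC3 minus that in DU145 cells. Among the kinases, cyclins and CDC25 phosphatases it was -0.61 for CCNA2, -0.56 for CDK1, -0.46 for CDC25C, -0.42 for NEK2, -0.37 for CCNB2, -0.35 for CCNB1, -0.35 for CDC25B, -0.34 for PLK1 and -0.16 for AURKA. Among the passenger complex it was -0.76 for AURKB, -0.60 for INCENP, -0.48 for BIRC5 and -0.38 for CDCA8. Among the checkpoint and anaphase genes it was -0.61 for ESPL1, -0.53 for TTK, -0.48 for BUB1B, -0.48 for BUB1, -0.45 for PTTG1, -0.41 for MAD2L1, -0.30 for UBE2C, -0.25 for CDC20 and -0.21 for BUB3. Among the centromere and kinetochore genes it was -0.74 for CENPA, -0.69 for SPC24, -0.62 for NUF2, -0.60 for SPC25, -0.52 for CENPF and -0.49 for NDC80. Among the kinesins it was -0.71 for KIF20B, -0.59 for KIF11, -0.51 for KIF20A, -0.41 for KIF14, -0.37 for KIF23, -0.36 for KIF18A and -0.25 for KIF2C. Among the spindle proteins it was -0.63 for DLGAP5, -0.61 for NUSAP1, -0.58 for HMMR, -0.50 for ASPM, -0.32 for TPX2 and -0.21 for CKAP2. Among the cytokinesis genes it was -0.63 for ANLN, -0.53 for ECT2 and -0.31 for PRC1. Among the condensin and chromosome genes it was -0.69 for NCAPH, -0.58 for TOP2A, -0.55 for NCAPG, -0.52 for MKI67, -0.51 for SMC4 and -0.45 for SMC2. Among the regulators it was -0.59 for CDCA3 and -0.50 for FOXM1.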

How the results depend on the processing

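None of the counts and medians reversed under any alternative run. With a log2 fold change above 1 as a further threshold 0 genes were called in every comparison and direction. Scaling by library size alone, which moved the median of all genes in DU145 cells from 0.0085 to 0.058, gave 10 higher mitosis genes and a median of -0.038 in that line, a median difference of -0.57 between the responses, and 6 lower genes and a median of 0.22 between the vehicle groups. Leaving out 1 sample at a time, the PC3 comparison gave 52 to 53 lower genes and medians of -0.58 to -0.53. The DU145 comparison gave 3 to 5 higher and 24 to 29 lower genes and medians of -0.13 to -0.082. The difference in response gave 50 to 52 lower genes and medians of -0.52 to -0.47, and the vehicle groups gave 22 to 31 higher genes, 8 to 12 lower genes and medians of 0.10 to 0.16. Of the calls of single genes, 0 were lost and 832 held in PC3 cells, 37 were lost and 459 held in DU145 cells, 26 and 1066 in the difference and 52 and 604 between the vehicle groups, over all alternatives that kept the threshold, and none changed sign. Samples with the same number did not deviate together (correlations of -0.02, 0.059 and -0.193 in PC3 and -0.022, 0.0098 and 0.0148 in DU145 cells). Those with different numbers ranged from -0.19 to 0.21 in PC3 cells. These correlations cannot tell whether samples with the same number were handled together. The fit with the replicate number as a block gave 52 lower genes in PC3 cells (median -0.55), 5 higher and 25 lower in DU145 cells (median -0.087), 50 lower in the difference (median -0.50) and 29 higher and 12 lower between the vehicle groups (median 0.14). At these depths the lowest count of a mitosis gene was 193, and genes with a few counts, such as LIN37, are limited by counting error.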

Other observations

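Some groups within the further mitosis and regulator lists, picked after their values were seen and not tested as groups, lay nearer to 0 in PC3 cells than the 53 genes. Of 11 subunits of the anaphase-promoting complex, the ubiquitin ligase that CDC20 activates, 3 fell and 1 rose in PC3 cells, with a median log2 fold change of -0.11, and 2 fell and 1 rose in DU145 cells, with a median of -0.011. Of 8 genes of cohesin and its regulators 4 fell in PC3 cells, with a median of -0.17, and 3 fell in DU145 cells, with a median of -0.063. Of 13 further centromere proteins 12 fell in PC3 cells, with a median of -0.47, only a little nearer to 0 than the -0.55 of the 53 genes. In DU145 cells 2 of the 13 fell and 1 rose, with a median of -0.059. None of the 3 subunits of NF-Y fell in either line, 1 rose in PC3 cells and 2 rose in DU145 cells. Of 5 MuvB subunits 3 fell and 1 rose in PC3 cells, with a median of -0.22. In DU145 cells none of the 5 was called, with a median of 0.059. Of all genes tested, 21.8% fell and 21.6% rose in PC3 cells and 16.9% and 17.3% did in DU145 cells, so that the 3 and 2 subunits of the anaphase-promoting complex that fell are near the share of all genes, and with so few genes in each group nothing is read from the other counts.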
